A study of Homo sapiens with 4 samples.

Results

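Protocadherins are cell surface adhesion proteins of the cadherin superfamily. The genes described here are those whose symbol starts with PCDH and that a probe set of the array names alone. They came to 75 probe sets of 48 genes, out of 54675 probe sets. Of these, 48 probe sets of 36 genes belonged to the PCDHA, PCDHB and PCDHG arrays on chromosome 5, called clustered here, and 27 probe sets of 12 genes to the rest. The rest included PCDH10-DT, a noncoding transcript divergent from PCDH10. A further 12 probe sets name several protocadherin genes, or PCDH20 with a neighbouring noncoding gene, and are described apart. Probe sets annotated to PCDH11Y were not used here.

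RNA came from CL1-0, a human lung adenocarcinoma line, and from CL1-5, its more invasive derivative. G9a, a methyltransferase of histone H3 lysine 9 and the product of EHMT2, was reduced in CL1-5 and raised in CL1-0. The 4 populations were the CL1-5 G9a knockdown by shRNA, its CL1-5 control shRNA, HA-tagged G9a in CL1-0 and the CL1-0 vector. All 4 were stably transduced and selected with puromycin for 2 weeks, so the controls carry a vector and the selection too. Each population was hybridised on 1 array, with no replicate, so the differences within a line have no replicate check and carry no p-value. Only 1 shRNA was profiled, and the labels do not say whether a population is a clone. The labels name a type II alveolar cell as the origin of the tumour. The 8 type II markers on the array summed to 179 in the knockdown and 163 in the CL1-5 control, and to 144 with HA-G9a and 151 with the vector, with 5, 5, 3 and 4 of them at 12.5 or more, the median of all values. Within CL1-5 they differed in both directions: the lipid transporter gene ABCA3 read 47.4 in the knockdown and 16.2 in the control, whereas the lung lineage factor gene NKX2-1 read 3.87 in the knockdown and 29.6 in the CL1-5 control, and 60.2 with HA-G9a and 31.2 with the vector. The surfactant gene SFTPC read 29.8 and 33.5 in CL1-5, and 6.72 with HA-G9a and 21.3 with the vector.

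In the clustered arrays, each PCDHA or PCDHG variable exon has its own promoter and is spliced to constant exons that its array shares, whereas each PCDHB gene stands alone in 1 exon. Neurons choose a few of these promoters per cell, with the insulator protein CTCF and cohesin looping them to distant enhancers, and the proteins serve self-recognition between neurites. The other protocadherins are single genes outside these arrays, PCDH1 and PCDH12 further along chromosome 5 and PCDH7, PCDH9 and PCDH17 on other chromosomes, with roles in adhesion and sorting of cells, and several protocadherin genes are known to be silenced by DNA methylation in carcinomas.

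The promoters of the PCDHB genes carry a shared element, shown here because it is a feature of most PCDHB members that the array values did not choose. RefSeq promoter windows (build GRCh38.p14, 250 bases before an annotated start) were at hand for 47 clustered and 10 other protocadherin genes. For PCDH1, PCDH15 and PCDH17 the window lies inside the span of the gene, not before it. The 9-letter run GGTGGCGCT, picked by counting runs in these same windows and searched on both strands, stood in 12 of the 47 clustered windows. These were 12 of 14 PCDHB windows. It stood in 0 of 13 PCDHA, 0 of 20 PCDHG and 0 of 10 other protocadherin windows. Over all genes, 117 of 27305 windows held it, or 0.428%. The PCDHB windows without it were those of PCDHB1 and PCDHB8, and no window was at hand for PCDHB6, PCDHB11 or PCDHB18P. The run contains the letters CGCT, known as the core of a conserved element of clustered protocadherin promoters. Those 4 letters alone stood in 45 of 47 clustered windows, in 9 of 10 others and in 64.3% of all windows. A match describes the letters and is not a site of binding. The following 40-base stretches come from the plus strand of chromosome 5 in PCDHB genes that the array measured, from chr5:141094539-141094578 for PCDHB2 to chr5:141245309-141245348 for PCDHB15. Capitals mark the shared run.
PCDHB2: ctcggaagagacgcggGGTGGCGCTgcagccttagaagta
PCDHB3: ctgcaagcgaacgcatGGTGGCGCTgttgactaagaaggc
PCDHB5: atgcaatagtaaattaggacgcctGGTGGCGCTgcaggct
PCDHB12: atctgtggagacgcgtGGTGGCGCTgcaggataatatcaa
PCDHB13: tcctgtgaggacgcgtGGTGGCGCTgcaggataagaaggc
PCDHB14: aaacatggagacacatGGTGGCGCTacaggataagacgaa
PCDHB15: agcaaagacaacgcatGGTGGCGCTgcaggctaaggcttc

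In these windows the run began 16 bases before the start of PCDHB5 and 43 to 70 bases before the start of the other 6 genes. Clustered windows held a median of 6 CpG dinucleotides (2 to 18), against 10 in the other protocadherins (5 to 21) and 11 over all genes. The value for the other protocadherins includes the windows inside PCDH1, PCDH15 and PCDH17. The windows of 3 genes on which later results turn are printed next. PCDH7 has chr4:30720119-30720368 on the plus strand, PCDH9 has chr13:67230337-67230586 on the minus strand, and PCDHGC3 has chr5:141475716-141475965 on the plus strand. Capitals mark CGCT on either strand, at 4, 3 and 6 places.
PCDH7: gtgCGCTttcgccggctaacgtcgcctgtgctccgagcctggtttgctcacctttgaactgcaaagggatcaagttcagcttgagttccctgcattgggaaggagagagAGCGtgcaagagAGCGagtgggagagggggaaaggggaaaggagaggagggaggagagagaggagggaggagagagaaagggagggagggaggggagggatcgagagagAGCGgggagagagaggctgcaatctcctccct
PCDH9: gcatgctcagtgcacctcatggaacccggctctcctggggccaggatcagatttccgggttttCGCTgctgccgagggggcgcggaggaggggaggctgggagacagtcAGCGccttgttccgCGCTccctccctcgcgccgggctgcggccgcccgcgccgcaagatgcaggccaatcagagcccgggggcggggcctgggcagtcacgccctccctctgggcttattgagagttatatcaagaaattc
PCDHGC3: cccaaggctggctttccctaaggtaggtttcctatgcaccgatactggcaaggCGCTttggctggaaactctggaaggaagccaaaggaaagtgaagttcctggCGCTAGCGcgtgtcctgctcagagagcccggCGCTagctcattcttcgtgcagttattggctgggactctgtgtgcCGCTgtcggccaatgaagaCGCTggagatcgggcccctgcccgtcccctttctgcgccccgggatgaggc

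Most protocadherin probe sets were dim. A probe set was called measured where its brightest array reached 12.5, the median of all values of the table, and a signal is a MAS5 intensity on a linear scale that compares arrays for 1 probe set, never 1 probe set with another. By that rule 31 of the 75 probe sets were measured (41.3%, against 60.2% of all 54613 probe sets outside the Affymetrix controls), and they covered 22 of the 48 genes. Among clustered genes 23 of 48 probe sets were measured and among the others 8 of 27. Only 3 reached 84.2, the 75th percentile of all values, on any array, namely those of PCDHB5, PCDHB6 and PCDH9. PCDHB5 alone did so on all 4 arrays. The other 44 probe sets stayed at or below 12.2 on every array, and 12 of them never passed the floor of 3.35, the 25th percentile.

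No probe set of PCDH8, PCDH10, PCDH11X, PCDH15, PCDH18, PCDH19 or PCDH10-DT was measured. PCDH10, a neuronal protocadherin often methylated in tumours, peaked at 7.41 over its 4 probe sets, and PCDH15, which encodes a component of the hair cell tip link, at 3.04. Among clustered genes, 19 of 36 were not measured, including PCDHA2, PCDHAC2, PCDHB1, PCDHB4, PCDHB7, PCDHB8, PCDHB9, PCDHB16, PCDHGA1 and PCDHGC5. Bulk RNA cannot tell fewer expressing cells from less RNA per cell. Of the 31 measured probe sets, 12 are of the _x_at type and 3 of the _s_at type, which can bind transcripts of near-identical relatives. All 12 of the _x_at type belonged to clustered genes, so single members of that group are uncertain.

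**Figure D1:**
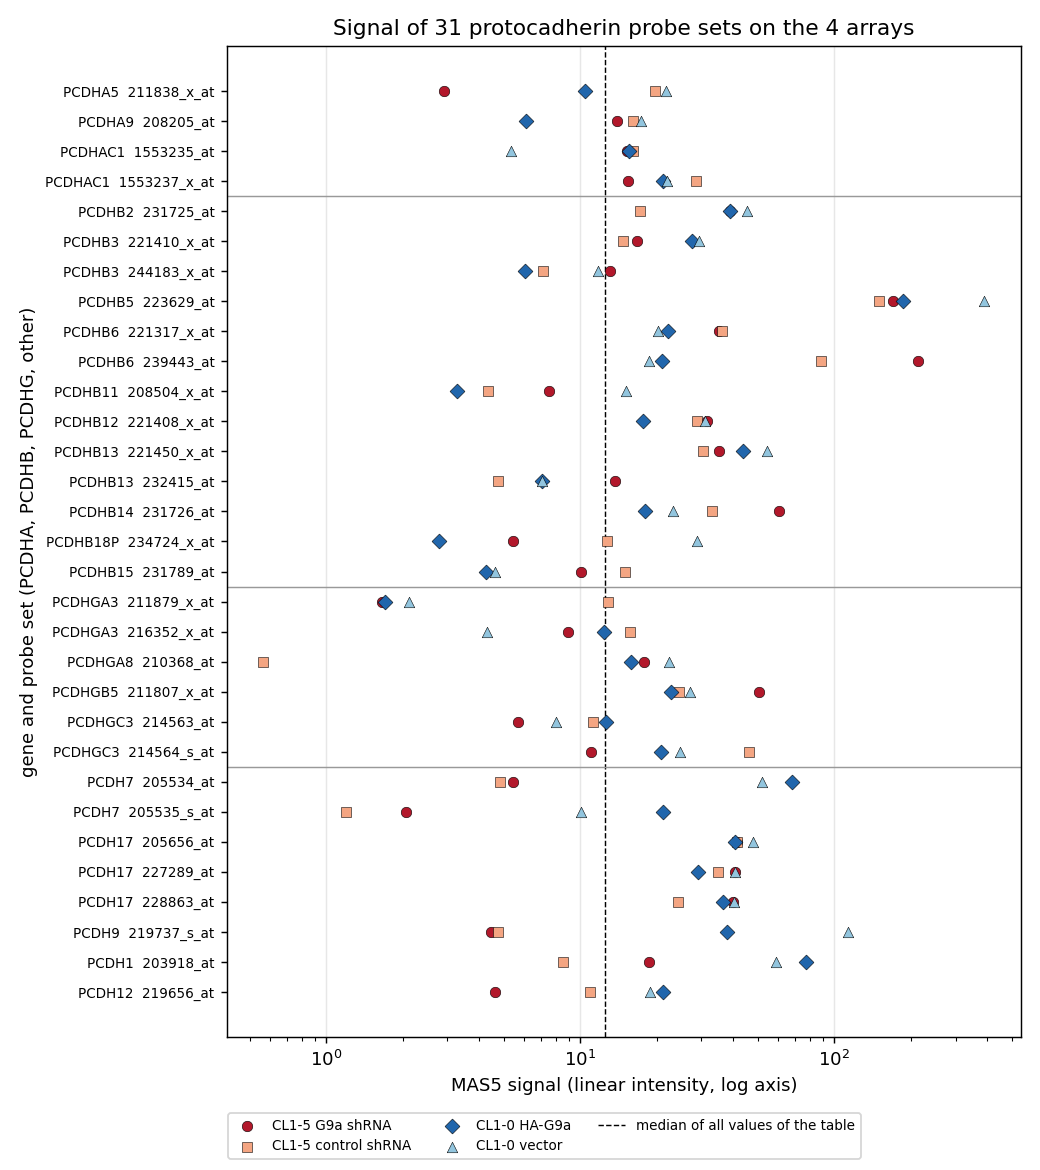
MAS5 signal (log axis) of the 31 measured protocadherin probe sets, 1 row each, grouped as PCDHA, PCDHB, PCDHG and other. Each marker is 1 array, some markers overlap, and the dashed line is the median of all values, 12.5. PCDHB5 sits between 150 and 390 on the 4 arrays, PCDH17 between 24.2 and 48.0 in all 3 of its rows, and the upper PCDH7 row at 5.44 and 4.82 in CL1-5 but at 68.2 and 51.9 in CL1-0.

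The targeted gene followed the labels. The bright EHMT2 probe set read 28.1 in the knockdown and 376 in the CL1-5 control, and 862 with HA-G9a and 420 with the vector. The arrays had not been brought to one level, with median signals of 14.9 in the knockdown, 11.3 in the CL1-5 control, 12.3 with HA-G9a and 11.7 with the vector. Ratios are therefore log2 ratios relative to the median probe set of each comparison, which stood at 0.43 for the knockdown and -0.06 for HA-G9a, with signals under the floor set to it. A 2-fold difference, a log2 ratio of 1, was used as a fixed threshold. Probe sets of 1 gene in the brightness range of most members (12.5 to 84.2 on the brighter array) also disagreed in their log2 ratio. The pooled SD was 0.73 for the knockdown and 0.69 for HA-G9a, against 0.30 and 0.25 for brighter ones. This spread comes from the same 2 arrays, so it does not measure variation between cultures or arrays.

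Reducing G9a in CL1-5 went with lower signals of several PCDHA and PCDHG probe sets. Outside the cluster only 4 probe sets of 2 genes were measured, and none passed 2-fold relative to the median probe set. As deposited, PCDH1 did (log2 ratio 1.12). The C-type isoform gene PCDHGC3, the PCDHA genes PCDHA5 and PCDHAC1, and PCDHGA3 were lower, and PCDHGA8 was higher. PCDHB genes stood closer to the median probe set, apart from PCDHB15, the pseudogene PCDHB18P and 1 probe set of PCDHB13. Of 25 measured member probe sets in CL1-5, 2 were higher by 2-fold or more and 7 lower by as much, all 9 of them clustered. That is 36%, where 16.7% of all 30450 measured probe sets passed 2-fold, and 23.8% of those whose brighter array was under 84.2. By direction the background over all was 8.74% higher and 7.94% lower, and 10.6% of the dim ones were lower. The split followed the scaling: as deposited 6 members were higher and 4 lower, beside 5673 and 1354 of all probe sets. The median relative log2 ratio was -0.30 over 21 clustered probe sets, which turned to 0.13 as deposited, and 0.04 over 4 others. With the floor raised to the median of all values 3 of 25 members stayed past 2-fold, where 10.1% of all probe sets did. The 3 were PCDHGC3 (-2.25), PCDHAC1 (-1.25) and PCDHA5 (-1.02).

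Among PCDHA genes, PCDHA5 (probe set 211838_x_at) read 2.90 in the knockdown against 19.8 in the control, a relative log2 ratio of -2.99 that rests on the floor. Its CL1-0 signals were 10.5 with HA-G9a and 21.7 with the vector, so the knockdown array was the lowest of the 4. PCDHAC1, a C-type member at the end of the PCDHA array, read 15.5 against 28.6 in 1 probe set (-1.32) and 15.3 against 16.1 in the other (-0.50), so its probe sets differed by 0.82. PCDHA9 read 14.0 against 16.2 (-0.64). All 4 measured PCDHA probe sets thus stood below the median probe set, and as deposited their log2 ratios were also below 0, between -2.56 and -0.07.

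PCDHG genes split. PCDHGC3, by its _s_at probe set, read 10.98 in the knockdown against 46.2 in the control, a relative log2 ratio of -2.50, with 20.7 and 24.7 in the CL1-0 arrays between these values. Its other probe set was below 12.5 on both CL1-5 arrays, at 5.70 against 11.2. PCDHGA3 had 2 probe sets at 1.66 against 12.9 and at 8.97 against 15.6 (-2.37 and -1.23), both of the _x_at type. The first ratio rests on the floor, and with the floor at the median of all values they were -0.40 and -0.69, under 2-fold. PCDHGA8 read 17.7 in the knockdown against 0.56 in the control, a ratio of 1.97 that rests on the floor. The control array was the one out of line there, since both CL1-0 arrays read 15.8 and 22.3. PCDHGB5 read 50.5 against 24.4 (0.62), inside the spread between probe sets.

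The PCDHB genes were the largest measured group, with 12 probe sets of 9 genes and a median relative log2 ratio of -0.23. PCDHB5 read 170 in the knockdown against 150 in the control (-0.24). PCDHB6 read 214 against 88.6 in its bright probe set (0.84), yet 35.0 against 36.2 in the _x_at probe set (-0.48), a difference of 1.32 between probe sets of 1 gene. PCDHB14 read 60.7 against 33.1 (0.44) and PCDHB2 38.7 against 17.2 (0.74). PCDHB13 split in the same way as PCDHB6, at 13.7 against 4.75 in 1 probe set (1.10) and 35.2 against 30.3 in the brighter one (-0.22). PCDHB15 read 10.05 against 15.0 (-1.01, and -0.99 once all arrays are set to the same median), and PCDHB18P 5.45 against 12.7 (-1.65).

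Outside the cluster, PCDH17, a protocadherin of axon and synapse organisation, was level. Its 3 probe sets read 41.5 against 41.4, 40.8 against 34.9, and 39.8 against 24.2, with relative log2 ratios of -0.43 to 0.29. PCDH1, known for its role in airway epithelium, read 18.6 against 8.58 (0.69). PCDH7, PCDH9 and PCDH12 were under 12.5 on both CL1-5 arrays. Beside these differences, the 5 endothelial markers had a summed signal of 94.8 in the knockdown against 401 in the control, with 1 and 3 of them at 12.5 or more and the vessel marker VWF at 2.30 and 1.97. The 6 epithelial markers summed to 2988 and 3745, with 5 and 3 at 12.5 or more. Most of the sum was KRT18 (2533 and 2945). E-cadherin (CDH1) went the other way, at 77.6 in the knockdown and 2.36 in the control, as did EPCAM, at 18.1 and 6.06. The part of these genes in the protocadherin values was not tested.

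**Figure D2:**
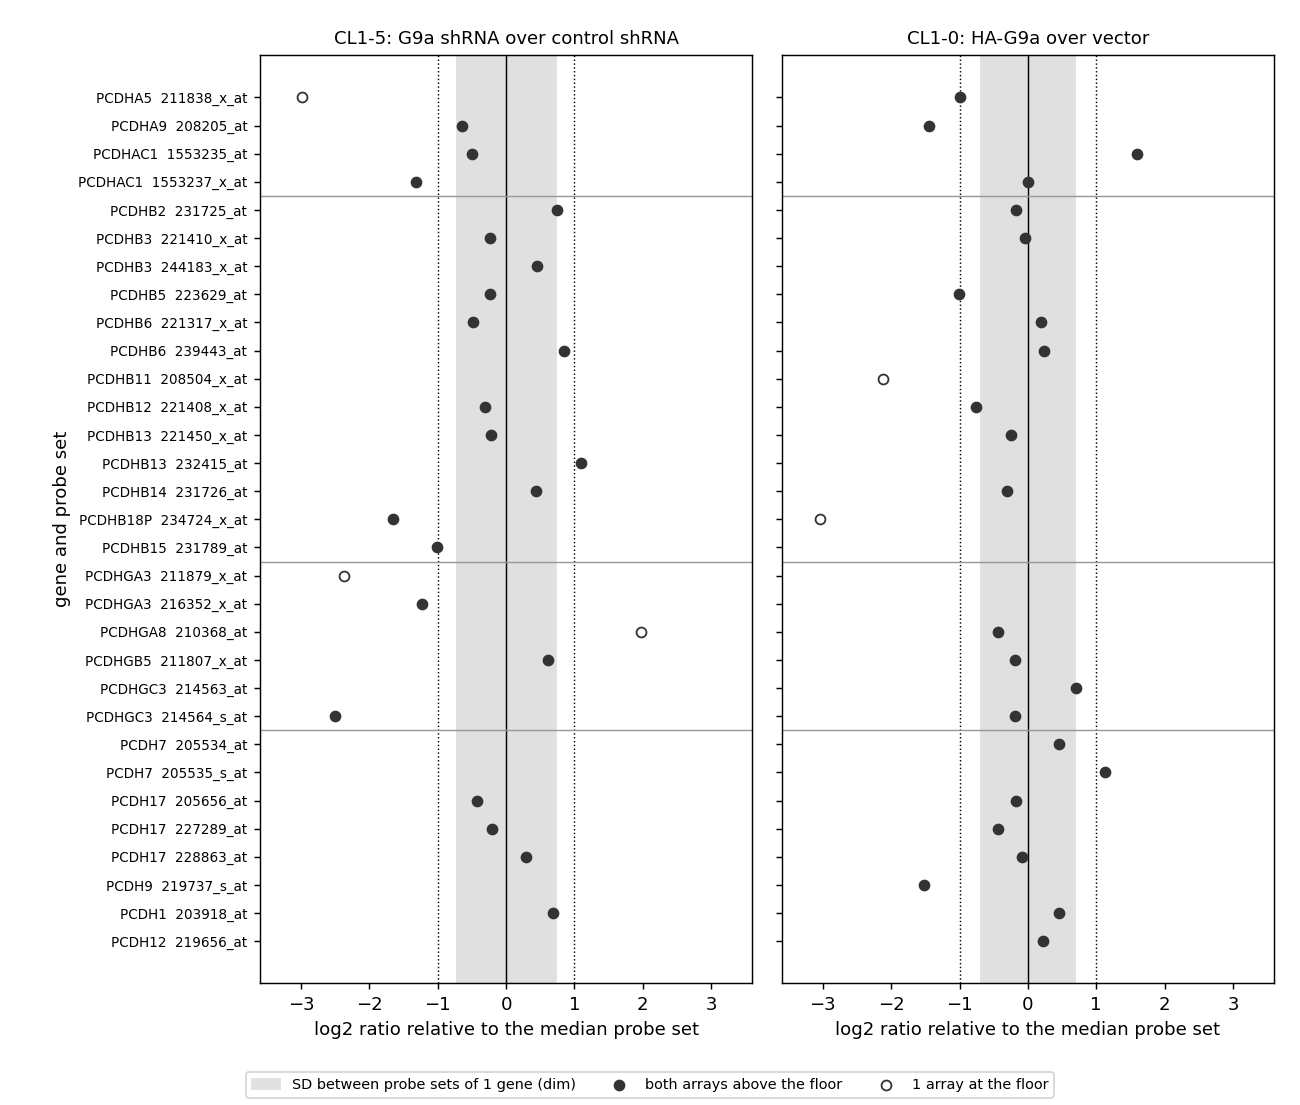
Log2 ratio relative to the median probe set for the member probe sets measured in each comparison, with the knockdown on the left and HA-G9a on the right. Dotted lines mark 2-fold, the grey band is 1 SD between probe sets of 1 gene (0.73 and 0.69), and open circles have 1 array at the floor. PCDHA5, PCDHGC3 and PCDHGA3 lie lowest on the left, PCDHB18P and PCDHB11 on the right.

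HA-G9a in CL1-0 went with lower signals of PCDHB5 and PCDH9 and of some dim clustered genes. PCDH1 and the bright PCDH7 probe set were under 2-fold, and a second PCDH7 probe set was higher. Of 26 measured member probe sets, 2 were higher by that threshold and 5 lower, or 26.9%, where 10.3% of all 29096 measured probe sets passed 2-fold and 17.6% of the dim ones. By direction the background over all was 6.18% higher and 4.16% lower, and 7.13% of the dim ones were lower. Over all probe sets 1798 were higher and 1211 lower, whereas scaling each array to one median gave 1496 and 1728, and quantile normalization 1687 and 1626. The median relative log2 ratio was -0.22 over 18 clustered probe sets and 0.07 over 8 others, which turned to -0.07 with the arrays scaled to one median. With the floor at the median of all values PCDH9 (-1.53), PCDHB18P (-1.15) and PCDHB5 (-1.01) stayed past 2-fold, where 3.77% of all probe sets did.

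PCDHB5 had signals of 187 with HA-G9a and 390 with the vector, a relative log2 ratio of -1.003, on the 2-fold mark. The vector array was the highest of the 4, and the HA-G9a signal was near the 170 and 150 of CL1-5. PCDHB18P read 2.78 against 28.7 (-3.04) and PCDHB11 3.27 against 15.1 (-2.11), both resting on the floor and both of the _x_at type. The second PCDHB18P probe set read 7.72 against 8.83, below the measuring limit. PCDHB12 read 17.6 against 31.1 (-0.76) and PCDHB14 17.9 against 23.2 (-0.31). The other PCDHB ratios, those of PCDHB2, PCDHB3, PCDHB6 and PCDHB13, lay between -0.25 and 0.23.

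In the PCDHA array, PCDHA9 had signals of 6.14 with HA-G9a and 17.4 with the vector (-1.44) and PCDHA5 10.5 against 21.7 (-0.99). PCDHAC1 went the other way in 1 probe set, at 15.5 against 5.32 (1.60), and was level in the other, at 21.2 against 21.9 (0.01). No PCDHG probe set passed 2-fold: PCDHGC3 read 20.7 against 24.7 and 12.6 against 8.01 (-0.19 and 0.71), PCDHGA8 15.8 against 22.3 (-0.44) and PCDHGB5 22.7 against 27.1 (-0.20).

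PCDH9, a protocadherin of the nervous system, had signals of 37.8 with HA-G9a and 113 with the vector, a relative log2 ratio of -1.52. Both signals were far above its CL1-5 values of 4.45 in the knockdown and 4.75 in the control. Its other 3 probe sets were under 12.5 on all arrays. PCDH7, which binds the phosphatase inhibitor SET in its cytoplasm and is reported to act as an oncogene in lung cancer, read 68.2 against 51.9 in its bright probe set (0.45) and 21.1 against 10.1 in another (1.13, and 0.99 with the arrays scaled to one median). PCDH1 read 77.6 against 59.0 (0.46) and PCDH12, an endothelial and trophoblast protocadherin, 21.2 against 18.9 (0.23). The PCDH17 probe sets had ratios of -0.43 to -0.09. Beside these values, the 6 epithelial markers summed to 2360 with HA-G9a and 684 with the vector. On each array 5 of 6 were at 12.5 or more. Most of the sum was KRT18 (2113 and 545), with KRT8 at 186 and 67.1, whereas EPCAM read 12.6 and 24.6. CDH1 and KRT7 were near level, and KRT19 read 1.26 and 0.30. The 6 fibroblast markers summed to 161 and 449, with 3 of 6 at 12.5 or more on each and PDGFRA at 5.35 and 6.34. Most of the vector sum was COL3A1 (59.7 and 330), whereas COL1A2 (18.0 and 12.1) and LUM (11.5 and 1.22) went the other way. The part of these genes in the protocadherin values was not tested.

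The comparisons share no array, so the 20 probe sets measured in both can be set side by side. With less G9a and with more G9a, 8 had ratios of opposite sign and 12 of the same sign, of which 10 were lower in both. Of the 8, 5 were higher after the knockdown and lower with HA-G9a and 3 the reverse. None of the 8 passed 2-fold in both. PCDHB14 (0.44 and -0.31), PCDHB2 (0.74 and -0.17) and PCDHGB5 (0.62 and -0.20) were among the 5, all with ratios under 2-fold. No such counts were made over all probe sets, so these signs are not read as a result about the protocadherins.

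Probe sets shared by several clustered genes read across each gene array. There are 3 that name 15 PCDHA genes each. The first (223435_s_at) read 113 in the knockdown against 128 in the CL1-5 control, and 49.7 with HA-G9a against 54.3 with the vector. The second (210674_s_at) read 50.4 against 66.8, and 19.5 against 18.2. The third (224212_s_at) read 16.3 against 31.4, and 18.9 against 26.6. After the knockdown their relative log2 ratios were -0.61, -0.84 and -1.37, on the same side as the 4 single-gene PCDHA probe sets. With HA-G9a they were -0.07, 0.16 and -0.43, all under 2-fold. As deposited, the log2 ratio of the first after the knockdown was -0.18. The probe set shared by 7 PCDHG genes, of the _x_at type, read 14.2 in the knockdown against 24.96 in the control (-1.25), and 8.51 against 1.38 in CL1-0, where it was not measured. A probe set shared by PCDHB9 and PCDHB10 read 52.6 against 25.6 (0.61), and 29.4 against 40.2 (-0.39). The remaining 7 shared probe sets were under 12.5 on all arrays.

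**Figure D3:**
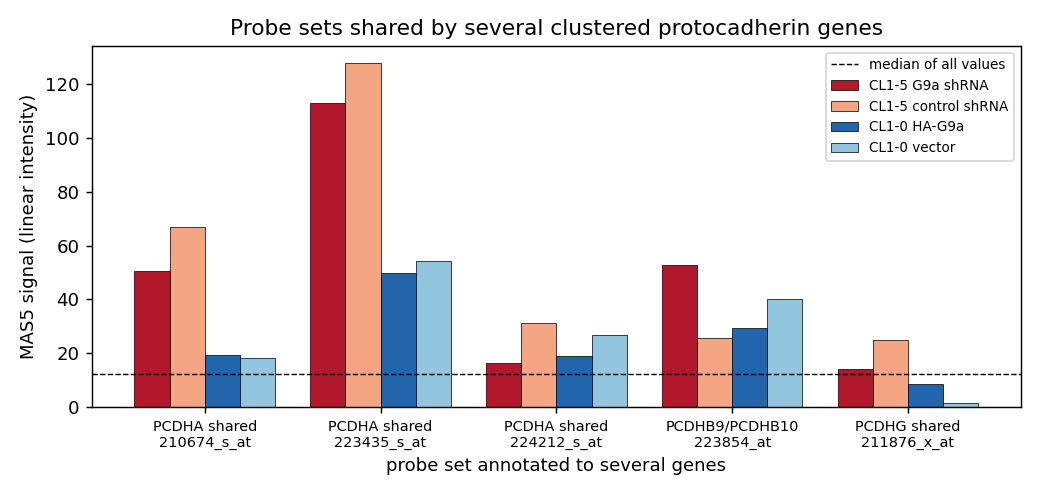
MAS5 signal (linear axis from 0) of the 5 measured probe sets that name several protocadherin genes, with a bar per array and the median of all values dashed. The bars of 223435_s_at stand at 113 and 128 in CL1-5 and at 49.7 and 54.3 in CL1-0, and those of 210674_s_at at 50.4 and 66.8 against 19.5 and 18.2.

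Between the lines 1 protocadherin probe set, of PCDH7, passed the test, and it was lower in CL1-5. Both CL1-5 arrays were set against both CL1-0 arrays in limma over all 32897 measured probe sets, with Benjamini-Hochberg adjustment. Each line is represented by its control and its perturbed array, and what G9a changes therefore counts as spread. The median log2 difference over all probe sets was 0.25, to be kept in mind for each value. Only the knockdown array had a higher median signal (14.9). The CL1-5 control stood at 11.3, against 12.3 with HA-G9a and 11.7 with the vector. Between the controls alone the median log2 ratio was 0.01. By this test 1 of 31 member probe sets was called, where 1.69% of all were. At an unadjusted p under 0.05 there were 9 of 31 members and 6198 of 32897 overall. In 13 of 31 both arrays of one line lay above both of the other, where 52.6% of all did, so this count was not above the background. The 13 were 8 of 23 clustered and 5 of 8 other probe sets, and the 5 others were all lower in CL1-5.

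The called probe set was the bright one of PCDH7, at 5.44 and 4.82 in CL1-5 and 68.2 and 51.9 in CL1-0. Its limma log2 difference was -3.54 ± 0.35 (SE, n = 2 arrays each), with an adjusted p of 0.0196 and a 95% interval of -4.41 to -2.66. All CL1-5 signals of PCDH7 were under 12.5, so it was measured through its CL1-0 arrays alone. The size of the difference depends on the floor, and it was -2.25 with the floor at the median. The call was lost when any 1 of the 4 arrays was left out, with differences of -3.34 to -3.74 and limma adjusted p of 0.156 to 0.478, and with no filter on dim probe sets (0.0922). With 3 arrays, where the lone array of a line is taken to vary like the other line, limma called 0 of 32897 probe sets, with 2793 to 8668 at an unadjusted p under 0.05. A second PCDH7 probe set read 2.07 and 1.20 in CL1-5 and 21.1 and 10.1 in CL1-0 (limma log2 difference -2.12, adjusted p 0.0986). The remaining PCDH7 probe sets were under 12.5 on all arrays. Of these, 210273_at went the other way, at 8.53 and 9.16 in CL1-5 and 6.21 and 2.87 in CL1-0. The others, 210941_at (1.73 and 4.03 against 8.35 and 5.56) and 228640_at (0.33 and 1.18 against 3.99 and 2.37), were lower in CL1-5.

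PCDH9 read 4.45 and 4.75 in CL1-5 and 37.8 and 113 in CL1-0, a limma log2 difference of -3.83 ± 0.58 (SE) with an adjusted p of 0.0539. PCDH1 read 18.6 and 8.58 in CL1-5 and 77.6 and 59.0 in CL1-0, a difference of -2.42 ± 0.49 (SE) with a limma adjusted p of 0.0867. PCDH12 read 4.62 and 10.9 against 21.2 and 18.9 (-1.49, adjusted p 0.207 in limma). None of these passed the threshold. PCDH17, in contrast, had limma intervals that held 0 in all 3 probe sets, of -0.92 to 0.74, -0.78 to 1.04 and -1.29 to 0.69.

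Among clustered genes PCDHB6 had the widest gap, at 214 and 88.6 in CL1-5 and 21.0 and 18.6 in CL1-0. Its limma log2 difference was 2.80 ± 0.51 (SE), with an adjusted p of 0.0723. The _x_at probe set of PCDHB6 read 35.0 and 36.2 against 22.2 and 20.2, a difference of 0.75. PCDHB15 (1.47, adjusted p 0.130 in limma) and PCDHB14 (1.14, 0.251) were brighter in CL1-5, and PCDHB3 read 16.8 and 14.7 against 27.5 and 29.4 (-0.86, 0.251). Of the shared PCDHA probe sets, 210674_s_at differed by 1.62 ± 0.34 (SE) and 223435_s_at by 1.21 ± 0.33, with limma adjusted p of 0.0958 and 0.148, while 224212_s_at differed by 0.01.

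Set against each other, the control populations alone gave wider counts. Of 27 measured member probe sets 5 were at least 2-fold brighter in the CL1-5 control than in the CL1-0 vector and 9 dimmer, or 51.9%, against a background of 26.5% over all and 33.1% of the dim ones. PCDH9 had a relative log2 ratio of -4.59, PCDH7 of -3.44, PCDH1 of -2.79 and PCDHGA8 of -2.74, with its CL1-5 control signal at the floor. At the other end stood PCDHB6 at 2.24, PCDHGA3 at 1.93 and 1.85, PCDHB15 at 1.69 and PCDHAC1 at 1.59. The _x_at probe sets of PCDHB6 and PCDHAC1 were under 2-fold, at 0.83 and 0.37, and the 1.93 of PCDHGA3 rests on the floor. Some neuronal markers also differed between the lines. The 7 markers summed to 4586 and 3689 in CL1-5 and to 7266 and 9243 in CL1-0, with 4 of 7 at 12.5 or more on each CL1-5 array and 6 of 7 on each CL1-0 array. The dendrite protein gene MAP2 read 2.64 and 5.05 in CL1-5 and 778 and 1267 in CL1-0. NEFL read 1090 in the knockdown and 287 in the CL1-5 control, and 3433 with HA-G9a and 4558 with the vector. TUBB3 was near level, at 3419 and 3312 in CL1-5 and 2908 and 3257 in CL1-0. RBFOX3, a marker of mature neurons, stayed at or under 10.1 on all arrays and was highest in the CL1-5 control. Their part in the protocadherin differences was not tested.

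**Figure D4:**
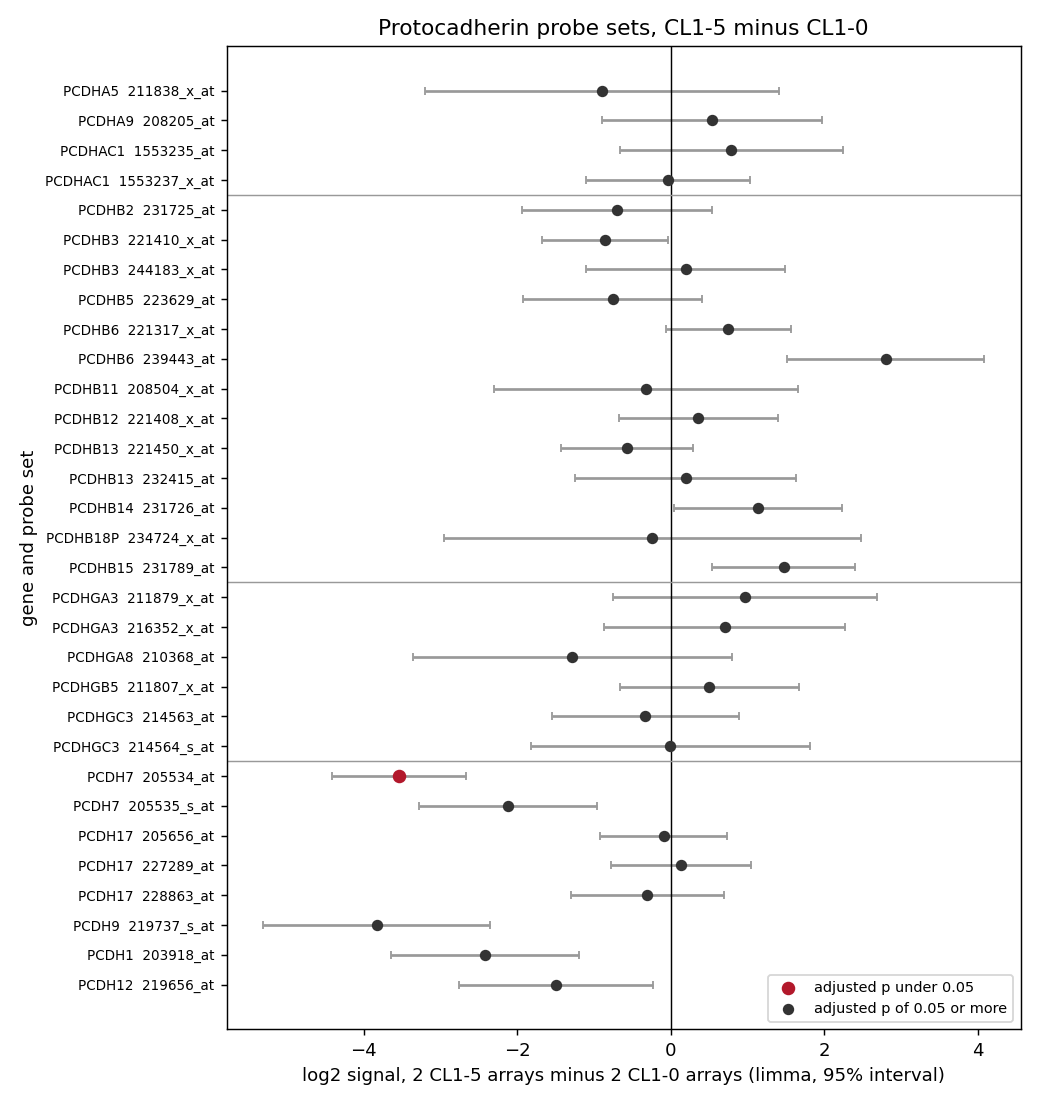
Limma log2 difference of the 2 CL1-5 arrays minus the 2 CL1-0 arrays for the 31 measured member probe sets, with 95% intervals. Only PCDH7 (205534_at, -3.54) passes the adjusted p threshold of 0.05, and PCDH9 (-3.83), PCDH1 (-2.42) and PCDHB6 (2.80) lie far from 0 without passing it.

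Genes around the protocadherins were followed through 5 lists. The neighbours of the clusters at 5q31, which lie on either side of the arrays or between them, had 1 of 22 measured genes past 2-fold after the knockdown and 1 of 21 with HA-G9a, against 15.9% and 9.21% of all genes. ARAP3, a GTPase-activating protein, read 87.2 in the knockdown against 323 in the control, and FCHSD1 had 20.2 with HA-G9a and 50.5 with the vector. The medians of this list were -0.19 and -0.01. None of 11 genes of CTCF and cohesin passed 2-fold in either comparison, with medians of 0.08 and -0.15. Of 16 measured silencing genes, 2 were lower and 0 higher after the knockdown, namely EHMT2 itself and ZNF644, a zinc finger partner of G9a. ZNF644 read 371 against 601 and was under 2-fold as deposited. Its log2 ratio was -1.12 relative to the median gene, which stood at 0.42. EHMT2 was the only one past 2-fold with HA-G9a.

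Of 16 measured cytoplasmic partners, 3 were lower after the knockdown and 1 was higher (median -0.21), against 15.9% of all genes past 2-fold. PTK2B, which encodes the kinase PYK2 that clustered protocadherins inhibit, read 5.79 against 23.8, and FYN, a Src family kinase, 24.3 against 57.1. AXIN1, a scaffold of the beta-catenin destruction complex, read 42.5 against 63.9. Its relative log2 ratio was -1.01, and it was under 2-fold as deposited. CYFIP2, a subunit of the WAVE actin regulator, read 140 against 23.2. With HA-G9a 1 of 15 measured passed, AXIN1 at 17.1 against 45.6, where 9.21% of all genes did. Of 9 measured atypical cadherins outside the PCDH symbols, 3 were higher after the knockdown and 0 lower (median 0.98). FAT1, a giant cadherin that acts on Hippo signalling, read 743 against 196, FAT2 20.5 against 3.14 and CELSR2, a planar polarity cadherin, 28.4 against 9.01. None of 7 measured passed 2-fold with HA-G9a (median 0.02).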

How the data were processed

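Each probe set has 1 deposited intensity per array, linear in scale. MAS5 is the only tool named in the submitters' processing notes, and the sources used here do not give its settings or detection calls. Per the labels' protocols, biotinylated cRNA was made from 6 ug total RNA. With 4 arrays, precision is limited by their number.

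Gene names came from the platform annotation. Of 54675, 41097 had 1 gene symbol, 1801 had several and 11777 are unnamed here, so probe sets of protocadherins among the last are not described. Symbols were updated by Entrez identifier to RefSeq (GRCh38.p14), which matched 41043 and left 54 as given. The 62 Affymetrix controls stayed out.

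Deposited signals were raised to a floor of 3.35 where lower, log2-transformed and centred on the median ratio of the measured probe sets of a comparison (except in the line fit). A probe set counted within a comparison where its brighter array reached 12.5. For gene lists a gene took its probe set with the highest mean signal. Line differences came from limma 3.58.1 in R 4.3.3 (lmFit, eBayes, 2 residual degrees of freedom), tested on simulated data. Python 3.11.15, pandas 2.3.3, NumPy 2.4.6, SciPy 1.17.1 and matplotlib 3.10.9 did the rest. Any measured member could be named, and in other lists the members past 2-fold, at most 4 a list. The members, lists and tests were chosen with earlier results of these data known, and the background of dim probe sets was added after the signals had been seen. Alternatives covered scaling, floor, filter, probe set choice and left-out arrays.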

Additional observations from a re-analysis of the deposited data

Results flagged for a closer look

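PCDHB18P, a pseudogene of the PCDHB array, was past 2-fold in the same direction with less G9a and with more. Its _x_at probe set had a relative log2 ratio of -1.65 after the knockdown (5.45 against 12.7) and of -3.04 with HA-G9a (2.78 against 28.7). The difference of more against less G9a thus had opposite signs in the 2 lines. The HA-G9a signal was at the floor, and the knockdown ratio was under 2-fold with the floor at the median of all values (-0.38) and with a pseudocount of 16 (-0.75), where the HA-G9a ratio was -1.15 and -1.20. The difference between the lines was not tested, and each ratio rests on 1 array a group.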

How the results depend on the processing

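No paired analysis was possible because each group was 1 array and the labels give no replicate numbers. Signal over background and the single array per group both limit these results: 28 of the 31 measured member probe sets stayed under 84.2 on all arrays. The counts of members past 2-fold depended on the treatment of dim signals. With the floor at the median of all values they were 3 of 25 after the knockdown, 3 of 26 with HA-G9a and 8 of 27 between the controls. Over all probe sets 10.1%, 3.77% and 18.4% passed there. With a pseudocount of 16 and no floor they were 3, 2 and 6, against 6.74%, 1.67% and 13.5% of all. With the filter at the 75th percentile they were 0 of 2, 1 of 2 and 3 of 3. Over all probe sets 10.03%, 2.15% and 20.1% passed at that filter. Without a filter they were 14 after the knockdown and 13 with HA-G9a of 75, where 16.4% and 12.4% of all passed. In both comparisons the members thus stood nearer to the background without a filter than at the usual filter. The other alternatives (as deposited, quantile normalization, one median, one count per gene, and no filter between the controls) kept the counts within 1.5 times of 9, 7 and 14. Under the 75th percentile filter, which leaves 1 or 2 probe sets, the clustered median was 0.33 after the knockdown and -0.98 with HA-G9a, and that of the other protocadherins was -1.497 with HA-G9a and -4.63 between the controls, where it was 0.00 with no filter and -2.79 with 1 probe set per gene. The 2-fold difference of PCDHB13 after the knockdown turned to -0.22 with the floor at the median. Among members of the line fit, 2 of 3 were called by limma past the 75th percentile filter, namely PCDH9 and PCDHB6 (adjusted p 0.0156 and 0.0248). PCDH7 is too dim for it. PCDH9 reached 84.2 only on the CL1-0 vector array and PCDHB6 only on the CL1-5 arrays. Both passed the filter through the line where they are brighter, so these calls are not read as support for a line difference. With no filter limma called 0 of 75 members (9 at an unadjusted p under 0.05). The fits with 1 array left out are given above with PCDH7. Over all probe sets limma called 6.88% past the 75th percentile filter and 0.0293% with no filter. In the lists together, 5 members after the knockdown and 1 with HA-G9a passed 2-fold under the 75th percentile filter, against 10 and 3 at the usual filter. At the usual filter 15.9% and 9.21% of all genes passed. That share was not counted for the stricter filter, so these counts are not read as a result about the lists.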

Other observations

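Between the control populations, genes that read or silence protocadherin promoters differed in a few places. The de novo DNA methyltransferase gene DNMT3B read 132 in the CL1-5 control against 377 in the CL1-0 vector (132 and 373 in the perturbed populations), a relative log2 ratio of -1.499, and it was the only one of 16 measured silencing genes past 2-fold. STAG2, a cohesin subunit, read 433 against 1331 (-1.60), the only one of 11 looping genes. Over all genes 25.8% passed 2-fold in this comparison. Of 6 measured atypical cadherins outside the PCDH symbols, 3 were lower in the CL1-5 control and 0 higher, namely CELSR2 at 9.01 against 70.7, CELSR3 at 51.7 against 106 and CLSTN3 at 18.7 against 39.3. Each value is from 1 array a group, with no test.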
